A study of Homo sapiens with 43 samples.

Results

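The comparison set 3 light-fraction freCLIP libraries from HEL cells with U2AF1 S34F (replicates 1, 2 and 3) against 3 from HEL cells with wild-type U2AF1 (WT; replicates 2, 3 and 4), so 6 of the 17 freCLIP libraries and of the 43 samples of the series. They were chosen by their labels for fraction and genotype. HEL is an established human erythroleukemia line, and both groups carried a stably transduced U2AF1 transgene, switched on for 48 hours by 1 µg/ml doxycycline. The cells were crosslinked with ultraviolet light and the tagged U2AF1 was precipitated with an anti-FLAG antibody. RNA was then taken from the membrane between 37 and 65 kD, the light fraction; the heavy fraction covered 65 to 110 kD. The endogenous U2AF1 genes were still present in both groups, and the labels do not say whether each transduced line was a clone or a pool.

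U2AF is the heterodimer that marks the 3' splice site early in spliceosome assembly. Its large subunit U2AF2 binds the polypyrimidine tract and its small subunit U2AF1 binds the AG dinucleotide at the intron end together with the bases around it. S34F changes a residue of a zinc finger of U2AF1 that contacts RNA, and it recurs in myelodysplastic syndromes and other cancers, where it is known for changing the use of exons according to the base just before the AG. In freCLIP the lighter complexes are separated from heavier ones that also hold U2AF2, so the light fraction is meant to report the contacts of U2AF1 itself.

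The deposited table counted reads per annotated gene entry, called a row here, and most counts fell on rows that lie across from an expressed gene on the other strand. Rows with an opposite-strand gene above 1 CPM in RNA-seq made up 20.8% of the annotated rows. They held 75.7% to 79.7% of the counts in the 6 light libraries, against 27.4% to 27.9% in the 4 RNA-seq libraries of induced S34F and WT cells. An opposite-strand gene of any level overlapped the exons of 38.5% of the annotated rows. Rows of this kind held 81.0% to 84.4% of the counts in the 6 light libraries, against 47.4% to 47.7% in the 4 RNA-seq libraries. Each row is therefore named with its opposite-strand gene, the overlapping gene with the highest RNA-seq level, and which strand the reads came from could not be read from the counts. Any further gene on that strand that a row overlaps is not named. Across 5441 tested rows of this kind, the light level had a Spearman coefficient of 0.163 to 0.244 with the RNA level of the opposite-strand gene in the 6 libraries and of 0.0955 to 0.166 with that of the row's own gene.

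The light libraries were shallow. Reads that named a gene numbered 172738, 48359 and 181402 in the S34F libraries and 78987, 324150 and 172896 in the WT libraries. Levels are counts scaled to library size with TMM (CPM), and 1 count was worth 4.08 to 21.2 CPM, the most in S34F replicate 2. Of 58347 rows, 6833 had enough counts to be tested. The 2 light libraries with the Q157R mutant were mostly less correlated with these 6. Their Spearman coefficients with the S34F and WT light libraries were 0.346 to 0.434, against 0.427 to 0.608 among the latter, ranges that overlap. The Q157R light libraries also had fewer rows with a count, 4619 and 4934 against 6683 to 11856, and the part of this in the coefficients was not tested. They entered the fit as a group of their own, and the count of calls with and without them is given below. Markers of the erythroid and megakaryocytic lineages were expressed in the RNA-seq libraries, with 17 of 19 and 8 of 9 above 1 CPM. Monocyte and granulocyte markers, of which 4 of 7 were above 1 CPM and MPO, ELANE and CD14 were not, summed to 47.1 to 65.4 CPM in induced WT and 94.1 to 110 CPM in induced S34F cells; their part in the light differences was not tested.

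U2AF1 itself could not serve as a check of the labels. Its row had 0 counts in all 6 light libraries. Taking 3 counts over the summed gene counts of a group, this allows up to 7.45 CPM over the S34F libraries and 5.21 CPM over the WT libraries. These 2 limits cover counting error only and lack the TMM scaling of the other levels. The reference genome also carries a near-identical U2AF1 copy, reads that map to both are not assigned to either, and gene counts do not tell the S34F transgene from the WT one. U2AF2 had 8, 2 and 16 counts in S34F replicates 1, 2 and 3 and 0 in each WT library, too few to be tested. The antisense row AC008735.2, which lies across from U2AF2, had 212, 446 and 446 CPM in the S34F libraries and 383, 1064 and 1026 CPM in the WT libraries. The groups overlapped, and its log2 difference of -1.19 ± 0.45 (SE) had an adjusted p of 0.216 in edgeR.

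In the main comparison 23 of 6833 rows were called (0.337%), 13 higher (0.190%) and 10 lower (0.146%) in S34F, at an adjusted p under 0.05 in edgeR's quasi-likelihood test. At an unadjusted p under 0.05 there were 970 rows. The rises were led by rows of low level in WT, and by the antisense row U47924.2, across from C12orf57, which was also the most abundant row of all. The falls included rows across from BCL2L1, HYOU1, CALR, CHD1L and SLC24A3, the NEXN and LMLN rows, and the mitochondrial MT-ND6. In 22 of the 23 rows the S34F and WT libraries did not overlap, a pattern that 904 of the 6833 rows showed (13.2%). The labels call the replicates biological without naming separate cultures, so the p-values measure the spread between these libraries, which may be technical in part.

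**Figure D1:**
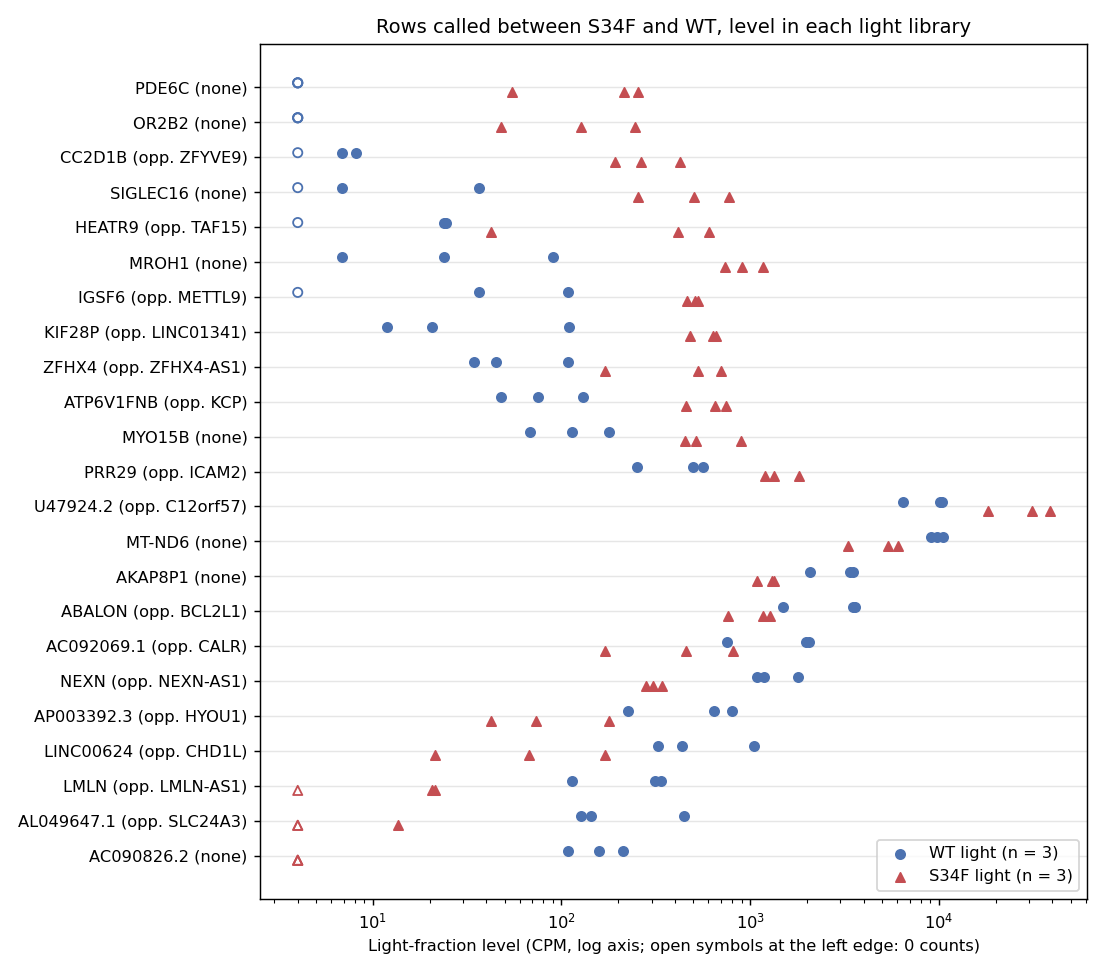
Light-fraction level in CPM (log axis) of the 23 called rows, each named with its opposite-strand gene or "none", in the 3 WT libraries (circles) and the 3 S34F libraries (triangles); open symbols at the left edge stand for 0 counts. The groups are apart in 22 rows and overlap in AC092069.1, and U47924.2 and MT-ND6 have the highest mean levels of the 23.

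The number of calls rested on the libraries used. Without the 2 Q157R light libraries 103 rows were called, 57 higher and 46 lower, and all 23 were among them. With only the 6 compared libraries in the fit 4 rows were called, and with only the 8 light libraries 2. Without S34F replicate 1, 2 or 3 the count was 11, 6 or 14, and without WT replicate 4 it was 6, while it was 28 and 22 without WT replicate 2 and 3. U47924.2 and MROH1 stayed called in all 15 alternatives, SIGLEC16 in 14 and NEXN in 13. MT-ND6 was called in 2 of its 14, OR2B2 in 3 of its 14 and AC092069.1 in 5 of its 15.

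U47924.2 is a short annotated antisense transcript at chr12:6943508-6944604 (GRCh38, minus strand) whose 1097 exonic bases lie over 737 exonic and 360 intronic bases of C12orf57, a small protein linked to brain development. The row has 2 opposite-strand genes, of which C12orf57 has the higher RNA-seq level. Which of them the reads relate to is not known from the counts. The level of U47924.2 was 6471, 10440 and 10150 CPM in WT replicates 2, 3 and 4 and 38760, 31020 and 18330 CPM in S34F replicates 1, 2 and 3. All 3 S34F libraries were above all 3 WT libraries, with S34F replicate 3 the nearest to them. The log2 difference was 1.70 ± 0.25 (SE; adjusted p = 7.88e-05 in edgeR), a ratio of means of 3.25. The row held 3.28%, 3.02% and 1.65% of the gene counts in the S34F libraries and led each of them, whereas TTI2 led the WT libraries. The RNA level of C12orf57 was 65.7 and 113 CPM in induced WT and 73.5 and 79.5 CPM in induced S34F cells.

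The opposite-strand genes of 5 risen rows have annotated 3' splice sites inside the row's exons. They are shown because the base before the AG is where S34F is known to act. Each sequence is the strand of the opposite gene, 20 intronic and 3 exonic bases, read from GENCODE 29 transcripts on GRCh38, and the capitals mark the base at -3 and the AG. At most 3 sites are shown for a row. U47924.2, CC2D1B and HEATR9 were added after their values were seen.
C12orf57 chr12:6943522-6943544 plus strand: gcctttactgccgaatcCAGgtc
C12orf57 chr12:6944087-6944109 plus strand: tttacctccgctgaaccTAGagc
C12orf57 chr12:6944360-6944382 plus strand: tcttattgggttacctaCAGcct
ICAM2 chr17:64002923-64002945 minus strand: cttgccccctccctcccCAGagc
ICAM2 chr17:64003962-64003984 minus strand: ccctcctttgtcccctgCAGagc
ICAM2 chr17:64004213-64004235 minus strand: aaacttttatatctttcCAGttg
LINC01341 chr1:246776959-246776981 plus strand: attttcttggtgtctacCAGgat
LINC01341 chr1:246780364-246780386 plus strand: aactccacttgctcctcCAGctt
LINC01341 chr1:246789597-246789619 plus strand: tgcactcgctccctccgCAGccg
ZFYVE9 chr1:52346040-52346062 plus strand: cttttctctctgtggtaTAGgtt
TAF15 chr17:35864044-35864066 plus strand: cttccttccctatctttTAGatc

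Of these 11 sites 8 had C and 3 had T at -3. Over all tested rows, 3260 sites were found on 1840 rows, with C in 68.6%, T in 22.0%, A in 7.18% and G in 2.30%. The counts give 1 value per row, so whether the reads lay at a site, and at which of several, is not known.

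PRR29, a risen row of moderate level in WT, lies at chr17:63998351-64004304 across from ICAM2, an adhesion molecule of endothelial and blood cells. Of its 4142 exonic bases, 869 lay over exons and 842 over introns of ICAM2, which is 1 of the 2 genes opposite this row. PRR29 had 251, 562.5 and 499 CPM in the WT libraries and 1202, 1806 and 1338 CPM in the S34F libraries. All 3 S34F values were well above every WT value, and the log2 difference was 1.70 ± 0.38 (SE; adjusted p = 0.0218 in edgeR). The sites of ICAM2 shown above all had C at -3.

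MROH1, which encodes a HEAT-repeat protein, had no opposite-strand gene and rose the most among rows that stayed called throughout. It had 23.9, 89.7 and 6.84 CPM in WT replicates 2, 3 and 4, which is 2, 22 and 1 counts, and 909, 1169 and 733 CPM in S34F replicates 1, 2 and 3. The groups were far apart, and the log2 difference was 4.35 ± 0.63 (SE; adjusted p = 5.76e-05 in edgeR). SIGLEC16, a pseudogene of the sialic acid receptors of myeloid cells, had 0, 36.7 and 6.84 CPM in WT and 505.5, 255 and 776 CPM in S34F, a log2 difference of 4.78 ± 0.81 (adjusted p = 6.77e-04 in edgeR). SIGLEC16 has a close relative in SIGLEC11, so how its reads were assigned is uncertain. MYO15B, a myosin-like gene that also had no opposite-strand gene, had 179, 114 and 68.4 CPM in WT and 519, 892.5 and 452 CPM in S34F (log2 2.37 ± 0.57, adjusted p = 0.0399 in edgeR).

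Rows across from METTL9, KCP, LINC01341 and ZFHX4-AS1 rose from low WT levels. IGSF6, an immunoglobulin-family gene that lies mostly over introns of the histidine methyltransferase METTL9, had 108, 36.7 and 0 CPM in WT and 512, 531 and 464.5 CPM in S34F (log2 3.53 ± 0.73, adjusted p = 0.0120 in edgeR). ATP6V1FNB lies wholly over introns of KCP, a secreted modulator of BMP signalling, and had 47.9, 130 and 75.2 CPM in WT and 458, 744 and 654 CPM in S34F (log2 2.79 ± 0.58, adjusted p = 0.0120 in edgeR). In both rows every S34F library was above every WT library, with the S34F values of IGSF6 closer together than those of ATP6V1FNB. KIF28P, a kinesin pseudogene, had 12.0, 110 and 20.5 CPM in WT and 635, 659 and 483 CPM in S34F (log2 3.44 ± 0.76, adjusted p = 0.0246 in edgeR). ZFHX4, a zinc-finger homeobox gene, had 108, 44.8 and 34.2 CPM in WT and 697, 531 and 171 CPM in S34F, so its lowest S34F value was nearest to WT (log2 2.98 ± 0.66, adjusted p = 0.0218 in edgeR). Only 508 of its 15687 exonic bases lay over ZFHX4-AS1, all in introns, and ZFHX4-AS1 had 0 CPM in RNA-seq.

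A further 4 risen rows fell outside the rule for named rows, because a S34F library had under 10 counts, and are given for completeness after their values were seen. CC2D1B, across from the TGF-beta receptor adaptor ZFYVE9, had 0, 2 and 1 counts in the WT libraries and 62, 9 and 43 in the S34F libraries, a ratio of 50.6 with a 95% counting interval of 16.9 to 249. Of the 7495 exonic bases of CC2D1B, 144 lay over exons and 337 over introns of ZFYVE9. The mean RNA-seq level was 50.0 CPM for CC2D1B and 46.45 CPM for ZFYVE9. Summed over all rows across from ZFYVE9, the log2 difference went from 5.49 to 2.98 and was no longer called (adjusted p = 0.0884 in edgeR). HEATR9, across from the RNA-binding protein TAF15, had 23.9, 24.5 and 0 CPM in WT and 608, 42.5 and 416 CPM in S34F, where the 42.5 CPM of replicate 2 rests on 2 counts. Summed over all rows across from TAF15, the log2 difference went from 4.46 to 2.33 and was no longer called (adjusted p = 0.132 in edgeR). PDE6C, a phosphodiesterase of cone cells, had 8, 12 and 35 counts in S34F and 0 in WT, at least 24.4-fold higher against 3 counts over the WT libraries. OR2B2, an olfactory receptor, had 7, 6 and 40 counts in S34F and 0 in WT, at least 23.5-fold higher on the same floor. Neither PDE6C nor OR2B2 had an opposite-strand gene, and both WT groups were at the floor.

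**Figure D2:**
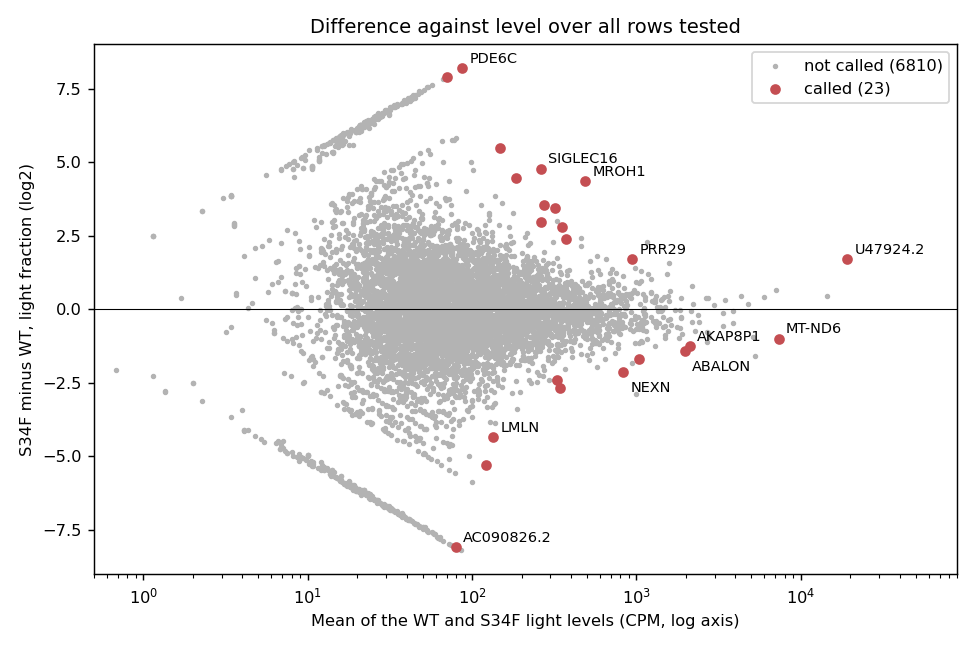
Difference between S34F and WT in the light fraction (log2) against the mean level (CPM, log axis) for the 6833 rows tested, with the 23 called rows as larger points. The called rows above 1000 CPM are U47924.2, ABALON, AKAP8P1, AC092069.1 and MT-ND6; the straight edges are rows with 0 counts in a group, whose fitted difference depends on the prior count and is not a measured size.

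Among the falls, 4 rows hold 3' splice sites of the opposite-strand gene. Their sequences are printed in the same way, for comparison with the risen rows; AC092069.1 was added after its values were seen.
BCL2L1 chr20:31722328-31722350 minus strand: agctctttctctcccttCAGaat
BCL2L1 chr20:31722346-31722368 minus strand: attatttttttttcctgAAGctc
CALR chr19:12944192-12944214 plus strand: ccccttctctcatctctTAGctc
CHD1L chr1:147259817-147259839 plus strand: gcttgggttttctctcaCAGatt
LMLN-AS1 chr3:198038661-198038683 minus strand: atccacttttccattccTAGtgc
LMLN-AS1 chr3:198038856-198038878 minus strand: tggttgggttgctgatgAAGgtg

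Of these 6 sites, 2 had C, 2 had T and 2 had A at -3. The sites of fallen and risen rows were too few to be compared, and both BCL2L1 sites lie within 1 row.

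ABALON is an antisense transcript at chr20:31721507-31723409 (plus strand) that covers 1424 exonic and 479 intronic bases of BCL2L1, the apoptosis regulator whose splicing gives a long, anti-apoptotic and a short, pro-apoptotic protein. ABALON had 1495, 3599 and 3488 CPM in WT replicates 2, 3 and 4 and 1168, 765 and 1271 CPM in S34F replicates 1, 2 and 3. WT replicate 2 lay closest to the S34F libraries, without overlap. The log2 difference was -1.41 ± 0.32 (SE; adjusted p = 0.0259 in edgeR), and -1.33 summed over all rows across from BCL2L1 (adjusted p = 0.0510). In RNA-seq, BCL2L1 had 290 and 373 CPM in induced WT cells and 96.9 and 161.5 CPM in induced S34F cells.

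The endoplasmic reticulum chaperones HYOU1 and CALR lie across from 2 further fallen rows. AP003392.3, at chr11:119044188-119045493 with 666 of its 667 exonic bases over exons of HYOU1, had 801, 644 and 226 CPM in WT and 178, 42.5 and 73.3 CPM in S34F. WT replicate 4 and S34F replicate 1 were close to each other, and the log2 difference was -2.40 ± 0.50 (SE; adjusted p = 0.0123 in edgeR). AC092069.1, across from CALR, is outside the rule because its groups overlapped: it had 754, 2063 and 1969 CPM in WT and 458, 170 and 807 CPM in S34F (log2 -1.70 ± 0.41, adjusted p = 0.0489 in edgeR), and summed over the rows across from CALR it was not called (adjusted p = 0.0581).

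NEXN and LMLN are protein-coding rows that overlap their own antisense RNAs over a small part of their length. Of the 4436 exonic bases of NEXN, 247 lay over exons of NEXN-AS1. Of the 8692 exonic bases of LMLN, 296 lay over exons and 372 over introns of LMLN-AS1. Mean RNA-seq levels were 0.892 CPM for NEXN and 2.467 CPM for NEXN-AS1. They were 4.855 CPM for LMLN and 0.596 CPM for LMLN-AS1. NEXN, which encodes the actin-binding protein nexilin, had 1089, 1802 and 1183 CPM in WT and 280, 340 and 306 CPM in S34F. The S34F libraries were nearly equal and all far below the WT ones, with a log2 difference of -2.15 ± 0.39 (SE; adjusted p = 0.00184 in edgeR). LMLN, which encodes a metalloprotease, had 335, 114 and 315 CPM in WT and 3, 1 and 0 counts in the S34F libraries (log2 -4.35 ± 0.90, adjusted p = 0.0120 in edgeR).

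LINC00624 has 5564 exonic bases, of which 1882 lie over introns and 210 over exons of CHD1L, a chromatin remodeller. It had 323, 436 and 1053 CPM in WT and 171, 21.3 and 67.2 CPM in S34F (log2 -2.68 ± 0.64, adjusted p = 0.0399 in edgeR); summed with the other rows across from CHD1L it was no longer called (log2 -2.31, adjusted p = 0.0510 in edgeR). AL049647.1 lies wholly over introns of SLC24A3, a sodium, calcium and potassium exchanger, and had 12, 31 and 65 counts in WT and 2, 0 and 0 in S34F. Its ratio was 40.6 lower in S34F with a 95% counting interval of 11.0 to 339, and its adjusted p was 0.0218 in edgeR. Summed over all rows across from SLC24A3, the log2 difference was -2.51 ± 0.51 in place of -5.29 ± 1.17 and was still called (adjusted p = 0.0116 in edgeR). AC090826.2, a lincRNA with no opposite-strand gene and outside the rule, had 9, 39 and 31 counts in WT and 0 in every S34F library, at least 19.8-fold lower. In AL049647.1 and AC090826.2 the S34F libraries were at or near the limit of detection.

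MT-ND6 and AKAP8P1 fell by smaller amounts at high levels and had no opposite-strand gene in the annotation. MT-ND6, a subunit of respiratory complex I and the only mitochondrial mRNA encoded on its strand, had 9737, 10480 and 9088 CPM in WT and 3286, 5355 and 6051 CPM in S34F. The groups were apart, and the log2 difference was -0.997 ± 0.24 (SE; adjusted p = 0.0399 in edgeR). AKAP8P1, a processed pseudogene of the nuclear anchoring protein AKAP8, had 2081, 3506 and 3371 CPM in WT and 1339, 1084 and 1308 CPM in S34F (log2 -1.26 ± 0.30, adjusted p = 0.0371 in edgeR). Its reads may be shared with the parent gene, so its assignment is uncertain.

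The kinds of called rows are given as a description, with no test of a difference between the directions. Of the 13 higher rows, 8 had an opposite-strand gene, 1 was annotated as antisense and 10 were protein coding. Of the 10 lower rows, 7 had an opposite-strand gene, 5 were annotated as antisense and 3 were protein coding. Among all rows tested 80.0% had an opposite-strand gene, 23.1% were antisense and 57.2% were protein coding.

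Among the most abundant rows, 6 of 8 were not called. TTI2, across from the ribosome biogenesis factor MAK16, had 12390, 12470 and 11780 CPM in WT and 20670, 12770 and 16150 CPM in S34F (log2 0.44 ± 0.29, adjusted p = 0.549 in edgeR). Only 932 of the 4222 exonic bases of TTI2 lay over MAK16, which is 1 of the 2 genes opposite this row. LENG9, across from LENG8, had 3888, 10240 and 9710 CPM in WT and 2391, 1934 and 3582 CPM in S34F; the groups did not overlap, but the log2 difference of -1.59 ± 0.52 had an adjusted p of 0.212 in edgeR. AL135999.1, across from the clathrin adaptor subunit AP1G2, had 6029, 5772 and 4759 CPM in WT and 8301, 8648 and 8960 CPM in S34F, again without overlap (log2 0.65 ± 0.22, adjusted p = 0.176 in edgeR). For LENG9 and AL135999.1, groups that were apart in all 6 libraries therefore missed the threshold. LENG9 was called with the no-filter setting (adjusted p = 0.00405 in edgeR) and with DESeq2 (adjusted p = 0.0453).

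The remaining abundant rows showed wider spreads or smaller differences. AC006064.4, across from the glycolytic enzyme GAPDH, had 2416, 8340 and 9519 CPM in WT and 3389, 2954 and 4193 CPM in S34F, with overlap (adjusted p = 0.181 in edgeR). ZNF773, a zinc-finger gene with no opposite-strand gene, ranged from 1447 to 8940 CPM in WT and from 2805 to 11220 CPM in S34F. TTN, the giant sarcomere protein whose row overlaps TTN-AS1, had 3684, 5026 and 4677 CPM in WT and 5377, 4972 and 4865 CPM in S34F (log2 0.18 ± 0.22, adjusted p = 0.775 in edgeR).

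Gene lists matched by a row's own gene or its opposite-strand gene gave 1 call in 17 lists, MT-ND6. Of 15 mitochondrial genes 13 were tested; 11 were lower and 2 higher in S34F, with a median log2 difference of -0.94, against -0.05 over all rows tested. Mitochondrial rows held 1.40%, 1.52% and 1.52% of the counts in the WT libraries and 0.682%, 0.957% and 1.09% in the S34F libraries. The groups did not overlap, and the exact two-sided permutation test gave p = 0.1, the smallest that 3 against 3 allows (adjusted p = 0.5 over 10 shares compared). The called MT-ND6 is a large part of this share, with 814, 2570 and 1329 counts in the WT libraries and 481, 252 and 990 in the S34F libraries. The share without MT-ND6 was not computed. Of the 13 tested rows, 2 had groups that did not overlap.

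Rows of the splicing machinery were not called. For the U2 snRNP and 3' splice site factors 6 rows were tested, 3 higher and 3 lower. The most abundant, C19orf44, across from the U2-associated CHERP, had 1029, 717 and 814 CPM in WT and 471, 1020 and 1137 CPM in S34F, with overlap. Of 21 SR and hnRNP rows 7 were higher and 14 lower, with a median of -0.40. MFSD11, across from the SR protein SRSF2, had 4258, 3371 and 2975 CPM in WT and 3368, 3612 and 2640 CPM in S34F, and NFE2L3, across from HNRNPA2B1, had 885, 1692 and 1204 CPM in WT and 1127, 850 and 892 CPM in S34F. Of the 17 tested rows of genes recalled as splicing targets of mutant U2AF1, 8 were higher and 9 lower, with a median of -0.14. C5orf66, across from the histone variant gene H2AFY, had 3218, 3881 and 5019 CPM in WT and 3040, 2486 and 2616 CPM in S34F, without overlap (log2 -0.57 ± 0.25, adjusted p = 0.289 in edgeR). MIR1282, across from SERF2, had a log2 difference of -0.53 ± 0.30 (adjusted p = 0.437 in edgeR).

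No row of the translation, stress granule, snoRNA host, nuclear lncRNA, decay or proliferation lists was called. Of 38 ribosomal protein rows 15 were higher and 23 lower (median -0.25), and of 24 translation factor rows 7 were higher and 17 lower (median -0.24). The ribosomal row AC245140.2, across from RPL10, had 1364, 3212 and 3898 CPM in WT and 1564, 1721 and 1803 CPM in S34F. AP003352.1, across from RPL30, and the rows across from the translation factors EIF4B (AC068888.1) and EIF4A2 (AC112907.3) had log2 differences of -0.26 ± 0.29, -0.16 ± 0.39 and -0.63 ± 0.44. Of 18 stress granule rows 7 were higher and 11 lower (median -0.40). AC133550.1, across from ATXN2L, had 1722, 1533 and 1422 CPM in WT and 806, 828.7 and 684.5 CPM in S34F, apart in all libraries but with an adjusted p of 0.156 in edgeR. AL358781.1, across from PRRC2B, had a log2 difference of -0.48 ± 0.37.

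Of 17 snoRNA host rows 13 were higher and 4 lower (median 0.50). Its most abundant rows were AC015802.6, across from SNHG16, and SNHG7, across from FAM69B, with log2 differences of -0.10 ± 0.38 and 0.22 ± 0.61. Of 26 nuclear lncRNA rows 14 were higher and 12 lower (median 0.01), with FTX, across from JPX, at 0.01 ± 0.37 and RAB11FIP1P1, which lies across from FTX, at 0.02 ± 0.36. Of 7 rows of nonsense-mediated decay factors 1 was higher and 6 lower (median -0.53). LIX1L-AS1, across from RBM8A, stood at -0.02 ± 0.49 and HIC1, across from SMG6, at -0.07 ± 0.68. Of 20 proliferation rows 7 were higher and 13 lower (median -0.39), with the rows across from the tubulin genes TUBB (AL662797.1) and TUBA1B (AC011603.2) at -0.65 ± 0.33 and -0.46 ± 0.47. None of the 22 abundant nuclear small RNAs had a tested row, as the row's own gene or as its named opposite-strand gene. Small RNAs that are a further opposite-strand gene of a row do not enter this count.

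Lineage rows were not called either, though the row across from TAL1 came near. AL135960.1, across from this erythroid and megakaryocytic transcription factor, had 2919, 3583 and 4493 CPM in WT and 1715, 1615 and 1766 CPM in S34F. The groups were well apart, and the log2 difference was -1.11 ± 0.28 (SE; adjusted p = 0.0518 in edgeR); it was called with DESeq2 (adjusted p = 0.0453) and without the Q157R light libraries (adjusted p = 0.0139 in edgeR). Of 14 erythroid rows 6 were higher and 8 lower (median -0.20), and SPTB, erythroid spectrin, whose row lies across from PLEKHG3, had a log2 difference of -1.39 ± 0.68. Of 19 megakaryocyte rows 7 were higher and 12 lower (median -0.44), and AC098848.1, across from the secretory GTPase RAB27B, had a log2 difference of -0.80 ± 0.40. Genes listed as markers of other cells reached the test in 4 rows. CSF3R had counts in 2 WT libraries and 0 in S34F, and CD4 stood at -1.12 ± 0.93. The keratin genes KRT18 and KRT8, which lie across from each other, stood at 1.18 ± 0.58 and 0.02 ± 0.84. In RNA-seq of the induced WT and S34F cells the mean level was 2.88 CPM for CSF3R and 13.75 CPM for CD4. It was 83.3 CPM for KRT18 and 51.75 CPM for KRT8.

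The broad make-up of the libraries differed little between the genotypes. Rows with an opposite-strand gene held 82.7% ± 1.70 of counts in WT and 83.2% ± 1.10 in S34F (SD, n = 3 each; exact permutation p = 0.8). Protein-coding rows held 55.9% ± 1.14 and 57.6% ± 0.541 (exact permutation p = 0.1, adjusted p = 0.5). The counts of rows with 1 opposite-strand 3' splice site were split by the base at -3, taking whole rows. Whether the reads lay at the site is not known. Rows with C held 68.1% ± 0.961 of these counts in WT and 67.0% ± 0.743 in S34F (exact permutation p = 0.2). Rows with T held 22.9% ± 0.929 and 23.6% ± 0.789 (exact permutation p = 0.5). Rows with A held 7.73% ± 0.143 and 7.86% ± 0.373 (exact permutation p = 0.7), and 1 row, ZRANB2-AS1, held 23.4% of the counts with A. With 3 libraries a group none of these tests could reach 0.05.

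**Figure D3:**
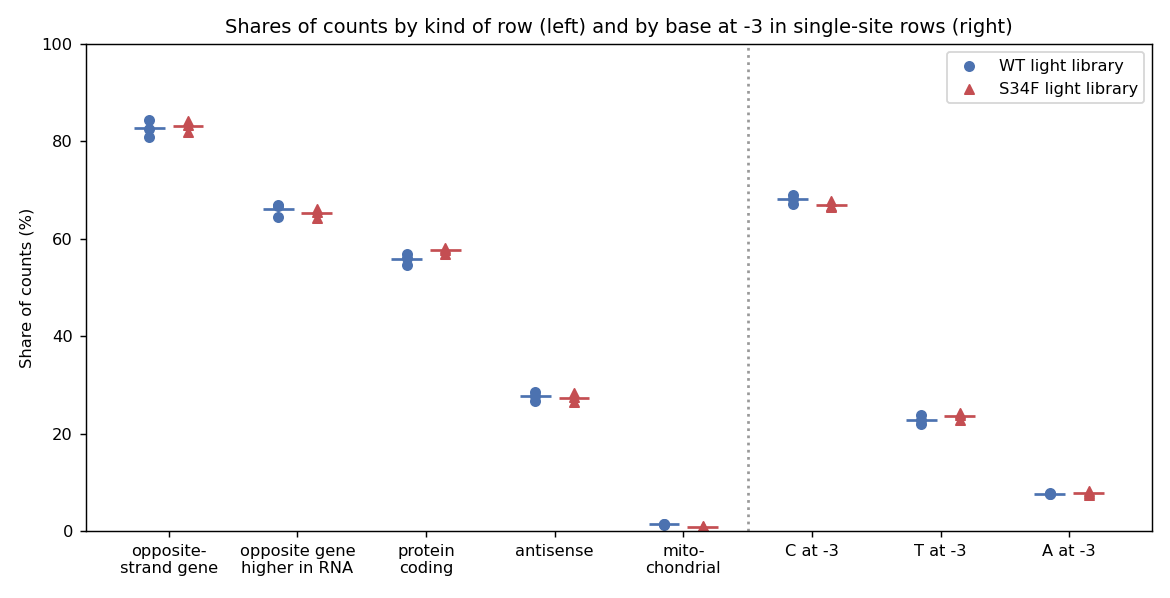
Share of gene counts (%) by kind of row (left of the dotted line) and, among rows with 1 opposite-strand 3' splice site, by the base at -3 (right), in each WT (circles) and S34F (triangles) light library, with group means as bars. The groups overlap in most columns. They are apart for mitochondrial rows, which include the called MT-ND6 and are lower in S34F. They are also apart, narrowly, for protein-coding rows, higher in S34F by 1.77 percentage points in the mean.

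Rows were also grouped by the base at -3, and the medians were not tested against each other. The 758 tested rows with 1 site and C at -3 had a median log2 difference of -0.12, of which 348 were higher and 410 lower. The 289 rows with T had a median of 0.05 with 149 higher and 140 lower, and the 84 rows with A a median of 0.12 with 44 higher and 40 lower. The 24 rows with G had a median of -0.11 with 11 higher and 13 lower. Called rows among them were CC2D1B and HEATR9 (higher) and AC092069.1 (lower) with T and LINC00624 (lower) with C.

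The same genotypes in the heavy fraction, with 3 S34F and 4 WT libraries, gave 9 called rows of 6833 (0.132%) in edgeR. All 23 rows called in the light fraction differed in the same direction in the heavy fraction, as did 4309 of the 6833 rows (63.1%), and in 19 the heavy libraries did not overlap, as in 1055 of the 6833 rows (15.4%). Light and heavy libraries of the same number may come from the same cells, so the heavy values are not independent. The heavy difference was the smaller in all 20 rows with counts in both light groups; those rows were picked by their light difference. The test of the difference between fractions called 0 rows in edgeR (0.0%) and 0 in DESeq2. At an unadjusted p under 0.05 in edgeR there were 321 of the 6833 rows. Of the 23 rows 12 were among them, but the 23 were picked by their light difference, which is part of this test. No conclusion on the fractions is drawn from that count.

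MROH1, ZFHX4, HEATR9 and AP003392.3 were the called rows that were also called in the heavy fraction. MROH1 had 243, 230, 131 and 82.4 CPM in the heavy WT libraries and 914, 1118 and 751 CPM in the heavy S34F libraries (log2 2.49 ± 0.50, adjusted p = 0.0317 in edgeR). HEATR9 had 37.3, 46.1, 55.4 and 72.6 CPM in heavy WT and 473, 410 and 543 CPM in heavy S34F (log2 3.10 ± 0.68, adjusted p = 0.0391 in edgeR). Both rows were thus well separated by genotype in the heavy libraries too. ZFHX4 and AP003392.3 had heavy log2 differences of 2.66 ± 0.56 and -1.98 ± 0.45 (adjusted p = 0.0391 and 0.0464 in edgeR). The heavy calls depended on every library: leaving out any 1 heavy library left 0 to 2 rows called.

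U47924.2 was much less abundant in the heavy fraction, at 3556, 2005, 2684 and 3388 CPM in WT and 7393, 4727 and 3890 CPM in S34F. The S34F libraries were higher there too, by 0.87 ± 0.23 (log2; adjusted p = 0.134 in edgeR), and the light difference exceeded the heavy one by 0.83 ± 0.33 (unadjusted p = 0.0170, adjusted p = 1). Among the 23 rows, which were picked by their light difference, CC2D1B had the lowest unadjusted p for a difference between fractions (2.24e-04 in edgeR). In the heavy fraction it had 233, 173, 121 and 153 CPM in WT and 387, 313.5 and 154 CPM in S34F, with overlap.

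**Figure D4:**
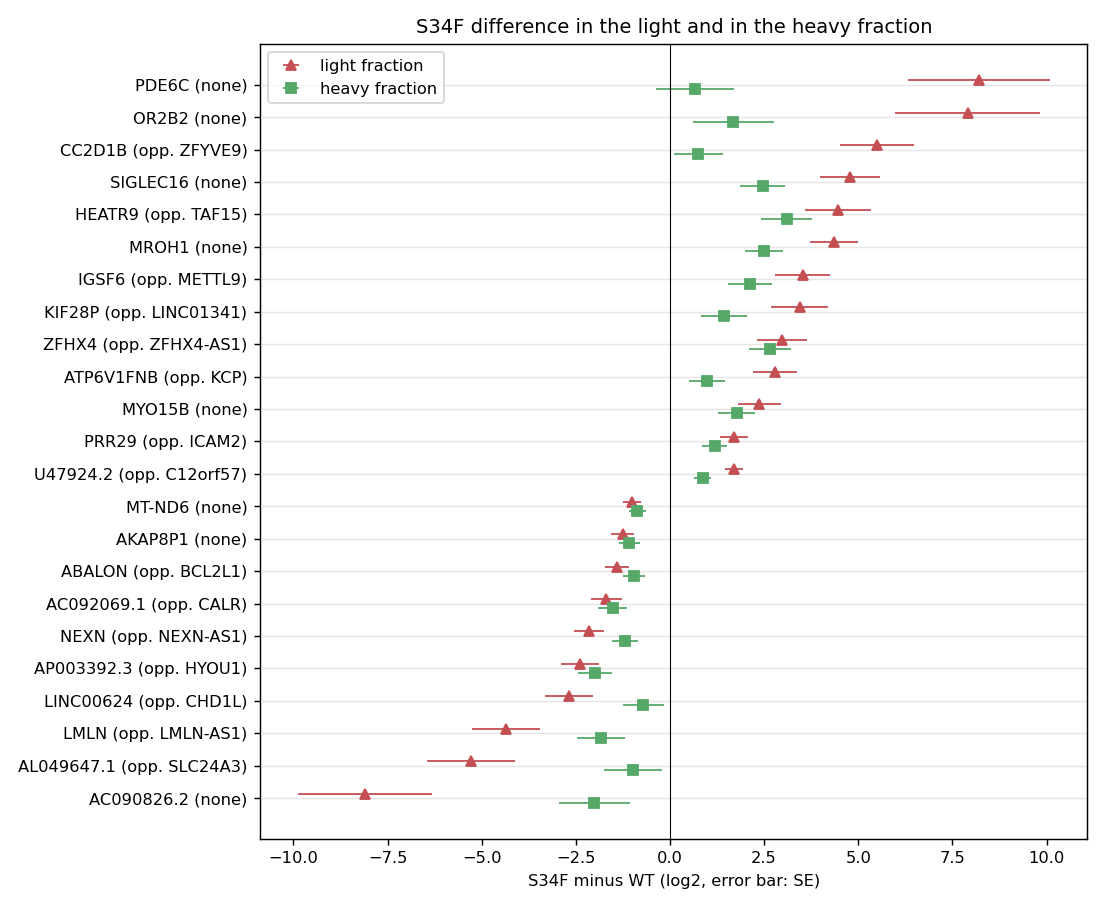
Difference between S34F and WT (log2, bars are SE) in the light fraction (triangles) and in the heavy fraction (squares) for the 23 called rows. Every pair lies on the same side of 0 and the heavy value is nearer to 0; the light values of PDE6C, OR2B2 and AC090826.2 come from a group with 0 counts and depend on the prior count.

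The light Q157R libraries share the WT controls, so their values are set side by side only, and 519 rows were called between Q157R and WT (7.60%) in edgeR. MROH1 had 144 and 724.5 CPM in the Q157R libraries and ZFHX4 had 103 and 828 CPM, so replicate 3 was high and replicate 2 low in both. U47924.2 had 6462 and 5826 CPM in Q157R, below every S34F library. AP003392.3 had 1132 and 1442 CPM in Q157R, above every S34F and WT light library. PRR29 had 370 and 754 CPM and ABALON 1461 and 1516 CPM in Q157R.

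RNA-seq of the induced cells, 2 libraries for each genotype, gives the level of the opposite-strand genes. Of the 23 rows 14 had an opposite-strand gene that was tested in RNA-seq, and 0 of these genes were called, where 356 of 21300 genes were called overall (1.67%). With the replicate number as a block 5 of the 14 were called and 4779 of 21300 overall (22.4%). The RNA difference had the direction of the light difference in 8 of 14 and ranged from -1.74 to 1.83 (log2). Reads outside annotated features were 33.7% and 33.5% in the S34F RNA-seq libraries and 22.7% in both WT libraries, and the part of this in the RNA values was not tested. No gene was called when any 1 of the 4 RNA-seq libraries was left out of the fit without the block.

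The log2 RNA differences and SE given here are those of the fit without the block. BCL2L1 had a log2 RNA difference of -1.36 ± 0.26 (adjusted p = 0.0503 without and 4.35e-04 with the block in edgeR), beside the fall of ABALON. HYOU1 had 596.5 and 558 CPM in WT and 339 and 277 CPM in S34F, a log2 difference of -0.91 ± 0.20 (adjusted p = 0.0610 without and 0.00328 with the block in edgeR), beside the fall of AP003392.3. LINC01341 had 2.04 and 2.83 CPM in WT and 8.32 and 9.04 CPM in S34F (log2 1.83 ± 0.38, adjusted p = 0.0558 without and 0.00133 with the block in edgeR), beside the rise of KIF28P. For these 3 genes RNA and light fraction moved the same way. TAF15 had an RNA difference of the other sign, with a log2 RNA difference of -0.58 ± 0.15 (adjusted p = 0.0815 without and 0.0109 with the block in edgeR) beside a light difference of 4.46 ± 0.88 in HEATR9, or 2.33 and not called summed over all rows across from TAF15. LMLN-AS1 had a log2 difference of -1.74 ± 0.58 at about 1 CPM or less (adjusted p = 0.133 without and 0.0358 with the block in edgeR).

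C12orf57, METTL9, CHD1L, ZFYVE9 and NEXN-AS1 had log2 RNA differences of -0.22 ± 0.29, -0.06 ± 0.22, 0.03 ± 0.15, -0.10 ± 0.17 and 0.01 ± 0.58, beside light differences above 1.5 in size in the rows across from them. For these 5 genes an RNA change was not detected in either fit. ICAM2, KCP, CALR and SLC24A3 were also not called in either fit, at 0.30 ± 0.25, 0.48 ± 0.29, -0.54 ± 0.52 and -1.07 ± 0.53. For the row's own gene, the log2 RNA difference was 1.64 ± 0.41 in ATP6V1FNB (adjusted p = 0.0747 without and 0.0102 with the block in edgeR). It was -1.45 ± 0.41 in ABALON (adjusted p = 0.0957 without and 0.0217 with the block in edgeR). MROH1 and MYO15B, at 0.46 ± 0.33 and 0.58 ± 0.24, were not called in either fit. SIGLEC16, PRR29, LMLN, NEXN and MT-ND6 were not called either, with the sign opposite to the light difference.

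**Figure D5:**
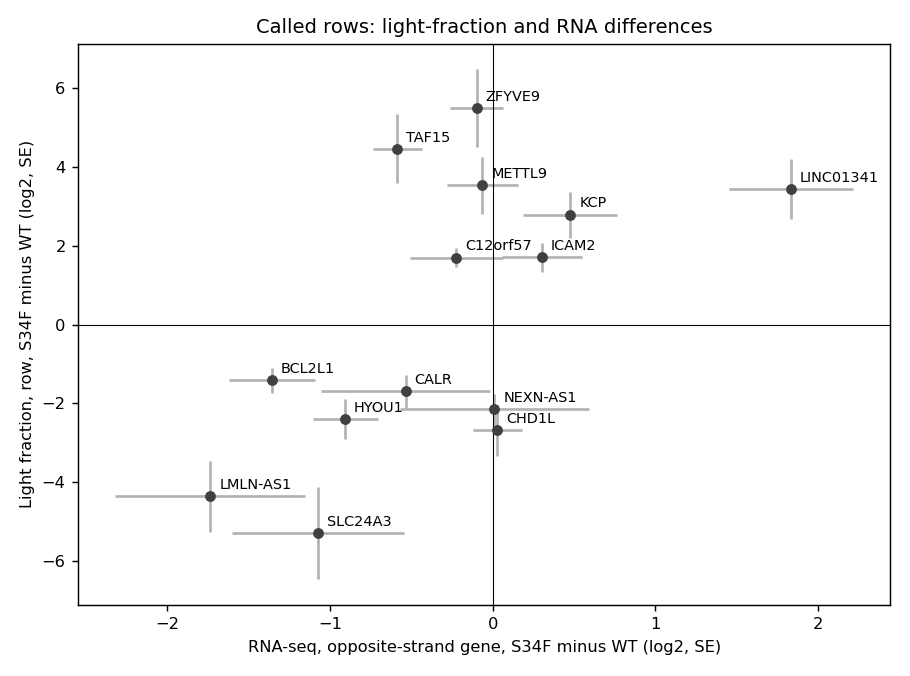
Difference between S34F and WT in the light fraction for a called row (log2, vertical) against the RNA-seq difference of its opposite-strand gene (log2, horizontal), for the 14 rows with such a gene tested; points are named by the opposite-strand gene and bars are SE. Points lie in all quadrants, with LINC01341 furthest right and LMLN-AS1 furthest left.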

How the data were processed

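The authors deposited raw read counts per annotated gene entry, per the file headers; per the submitters' processing notes the build was GRCh38.p10 and the tools included STAR (2.5.3a and 2.7.0f), HTSeq, HISAT2, cutadapt, SAMtools, DESeq2 and edgeR, each without a stated role. The strand setting of the counting is not given in the sources used here. Reads that named no gene were left out; those that did were 1.10% to 1.55% of the reads of the 6 light libraries. Entries were matched without version to GENCODE 29 (58084 of 58347). Calls used edgeR 4.0.16 in R 4.3.3 (TMM, filterByExpr with a minimum count of 10, robust quasi-likelihood F test, 1 mean per group) over all 17 freCLIP libraries, and likewise over the 10 RNA-seq libraries, with Benjamini-Hochberg adjustment over all rows tested and a threshold of 0.05. SE is the log2 difference divided by the root of F. Shares were compared with an exact permutation test. The scripts were tested on simulated data. For the light comparison, 14% of rows changed 4-fold and 52% of rows changed 16-fold were called in the right direction, with 3 false calls. A row that was not called may therefore still differ. Alternatives are DESeq2 1.42.0, other scalings, filters and libraries.

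Named rows were U2AF1 and U2AF2, called rows without overlap and with 10 counts in each library of the higher group (9 rises and 8 falls), the 8 most abundant rows, and up to 3 called or else the 2 most abundant rows of each list. The comparison, lists and rules were chosen with earlier results of these data known. RNA-seq replicate numbers paired the libraries (correlations of 0.211 to 0.652 in every pair), so blocked values are given beside RNA results whose call they change. 1 annotated splice site of a called row is not reported here. Intervals and floors cover counting error only.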

Additional observations from a re-analysis of the deposited data

How the results depend on the processing

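Depth limited the comparison: S34F replicate 2 held 48359 gene counts, and rows at the floor in a group carry bounds only. The main count of 23 light calls became 141 with DESeq2 (88 higher, 53 lower), 26 with RLE size factors (19 higher, 7 lower), 11 without the filter, 4 with only the S34F and WT light libraries, 2 with only the 8 light libraries, 103 without the Q157R light libraries (chosen after seeing the data), and 6 to 28 leaving out 1 library. The replicate number as a block gave 23 calls, 16 of them shared. Same-numbered light libraries of the genotypes had correlations of 0.0412 and 0.0198, and the labels do not say what else they share. The 9 heavy calls became 17 with the replicate block, 35 with DESeq2, 1 without the filter, 4 summed by opposite-strand gene, 29 without the Q157R light libraries and 0 to 2 leaving out 1 heavy library. The 519 Q157R calls became 333 with the replicate block, 263 without the filter, 20 with the 8 light libraries and 137 to 1318 leaving out 1 library. The 356 RNA-seq calls became 4779 with the replicate block, 1612 with DESeq2, 2410 without the filter, 0 with only the induced S34F and WT libraries and 0 leaving out any 1 of the 4. The cause of these changes was not tested. The difference between fractions gave 0 calls in every alternative. None of the 23 called rows changed direction in 341 values, and 145 of these were no longer called. Of the 34 other named rows, 6 of 509 values gained a call: LENG9 with the replicate block (-1.18), DESeq2 (-1.45) and no filter (-1.60), AC006064.4 without WT replicate 2 (-1.30), and AL135960.1 with DESeq2 and without the Q157R light libraries (-1.04). In the same rows 38 values changed sign (log2 values follow). With the replicate block AC068888.1 was 0.19, AC015802.6 0.036, LIX1L-AS1 0.18 and AC037198.2 0.50. With DESeq2 AC015802.6 was 0.013, LIX1L-AS1 0.12 and HIC1 0.0089, and with RLE size factors AC015802.6 was 0.0057 and LIX1L-AS1 0.13. LIX1L-AS1 was 0.048 with only the S34F and WT light libraries, 0.047 with the 8 light libraries and 0.056 without the Q157R light libraries, and RAB11FIP1P1 was -0.16 summed by opposite-strand gene. Leaving out 1 library, the ranges were -0.098 to 1.13 for ZNF773, -0.20 to 0.40 for C19orf44, -0.22 to 0.064 for MFSD11, -0.47 to 0.33 for AC068888.1, -0.42 to 0.00088 for AP003352.1, -0.24 to 0.059 for AC015802.6, -0.0059 to 0.55 for SNHG7, -0.14 to 0.35 for RAB11FIP1P1, -0.093 to 0.31 for FTX, -0.35 to 0.31 for LIX1L-AS1, -0.21 to 0.30 for HIC1, -1.33 to 0.12 for AC037198.2 and -0.20 to 0.34 for KRT8.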

Other observations

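The row AC037198.2, across from THBS1, the platelet-released adhesion protein thrombospondin, separated libraries by replicate number more than by genotype. In the light fraction it had 502, 4007 and 3077 CPM in WT replicates 2, 3 and 4 and 1025, 935 and 3594 CPM in S34F replicates 1, 2 and 3. In the heavy fraction it had 504, 564.5, 3473 and 3262 CPM in WT replicates 1 to 4 and 873, 925 and 3586 CPM in S34F replicates 1 to 3. Every library numbered 3 or 4 was thus above every library numbered 1 or 2 in both fractions. The light groups are not balanced for this, with 1 library numbered 3 in S34F and a 3 and a 4 in WT. The labels name no batch, and AC037198.2 was not called (log2 -0.44 ± 1.18, adjusted p = 0.928 in edgeR). The called falls differed in this. Within each genotype and fraction, ABALON and AC092069.1 were also higher in libraries numbered 3 or 4 than in those numbered 1 or 2. AP003392.3 was not, with 801, 644 and 226 CPM in light WT replicates 2, 3 and 4. The part of the replicate number in the called falls was not tested.

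ZNF773 was far more abundant in the light fraction than in the heavy one in both genotypes. It had 1447, 8940 and 5115 CPM in light WT and 6586, 2805 and 11220 CPM in light S34F, against 224, 369, 564 and 894.5 CPM in heavy WT and 1315, 523 and 1442 CPM in heavy S34F. The spread within each light group was wider than the difference between the groups.

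In eCLIP of the unfractionated WT protein, U47924.2 had 1710 to 4890 CPM in the U2AF1 libraries and 1810 to 4090 CPM in the U2AF2 libraries, both below the lowest light WT value of 6471 CPM; these assays were scaled separately.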
